A study of Homo sapiens with 4 samples.

Results

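DUSP genes encode dual-specificity phosphatases, and the 10 members described here act on MAP kinases: DUSP1, DUSP2, DUSP3, DUSP4, DUSP5, DUSP6, DUSP8, DUSP10, DUSP14 and DUSP16. They were taken by gene name, as every array probe whose platform annotation names a member. The list was drawn up with earlier results of these data known. This gave 12 of 47228 probes, for 10 of 20045 named genes. DUSP4 and DUSP6 had 2 probes each and the other members 1 probe. Each gene is described by its brightest probe, with the other probe given beside it. The set does not hold every dual-specificity phosphatase of MAP kinases: DUSP7 and DUSP9 were placed in the list of other dual-specificity phosphatases below.

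The macrophages came from THP-1 cells, a human leukemia line of monocytic origin. Each of 4 groups had 1 array: M0 macrophages without polarisation, M1 macrophages after IFN-r (interferon-gamma) and LPS, M2a macrophages after IL-4, and M2c macrophages after IL-10. All groups share the THP-1 background, and doses, times and the agent that made them M0 macrophages were not given in the sources used here. With 1 array per group no difference below has a replicate check, no test was possible, and group, culture, RNA and array cannot be told apart.

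MAP kinases (ERK, JNK and p38) are switched on when a MAP kinase kinase adds phosphate to a threonine and a tyrosine in their activation loop. Dual-specificity phosphatases remove phosphate from both residues and so switch the kinase off. In macrophages LPS activates all of these kinases, and several DUSP genes are themselves transcribed in response to MAP kinase signalling, which makes them negative feedback regulators. DUSP1, DUSP2, DUSP4 and DUSP5 are inducible nuclear enzymes, DUSP6 is a cytoplasmic phosphatase of ERK, DUSP8, DUSP10 and DUSP16 prefer JNK and p38, and DUSP3 and DUSP14 are small atypical enzymes without the MAP kinase binding domain of the others.

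The arrays detected between 27.39% (M1) and 31.38% (M0) of probes at a detection p below 0.01, where the detection p compares a probe with the negative control beads of its array. All 10 macrophage markers looked up, CD14, CD68 and CSF1R among them, were detected on every array. Of the state markers, CXCL9, IDO1 and CCR7 were detected on the M1 array alone, CCL26 and CISH on the M2a array alone and MARCO on the M2c array alone. C1QB, listed for M2c, went against its label and read 6172.3 on M1 against 2437.7 on M2c. TGM2, listed for M2a, was highest there at 9037.2 but was not limited to it, with 1776.7 on M1 against 189.6 on M0. Among 13 markers of T cells, B cells, epithelium, fibroblasts and red cells, CD2 was detected on M1 (raw intensity 128.4), CD79A on M0 (130.2), and DCN on M0 (220.8) and M1 (149.0), and the other 10 were not detected on any array.

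Promoter windows are shown for some of the members that stood higher on the M1 array (DUSP1, DUSP2 and DUSP16) and for DUSP8, which did not pass 2-fold there. RefSeq windows on GRCh38.p14, from 250 bases before to 50 after the start, were found for 8 members, with a pair of windows for DUSP10. No window was found for DUSP4 or DUSP5, and those of DUSP10, which also stood higher on M1, are not shown. The sequences are DUSP1 at chr5:172771146-172771445, DUSP2 at chr2:96145391-96145690, DUSP16 at chr12:12562814-12563113 and DUSP8 at chr11:1572222-1572521, all on the minus strand and written 5′ to 3′. Capitals mark the half-site TGACG and full site TGACGTCA of the cAMP response element (CRE), the E-box CACGTG and the TATA box TATAAA, on either strand.
DUSP1: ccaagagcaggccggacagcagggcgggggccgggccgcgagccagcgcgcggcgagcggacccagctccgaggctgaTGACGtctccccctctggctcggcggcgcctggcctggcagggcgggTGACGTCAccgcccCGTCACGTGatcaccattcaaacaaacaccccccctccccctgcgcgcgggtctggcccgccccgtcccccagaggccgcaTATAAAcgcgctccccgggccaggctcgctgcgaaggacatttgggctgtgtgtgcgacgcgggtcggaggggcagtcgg
DUSP2: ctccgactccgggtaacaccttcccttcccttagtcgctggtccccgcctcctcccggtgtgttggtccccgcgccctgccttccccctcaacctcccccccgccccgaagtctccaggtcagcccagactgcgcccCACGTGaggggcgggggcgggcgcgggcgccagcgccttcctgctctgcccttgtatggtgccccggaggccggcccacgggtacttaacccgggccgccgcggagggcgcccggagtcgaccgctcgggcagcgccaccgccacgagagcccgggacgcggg
DUSP16: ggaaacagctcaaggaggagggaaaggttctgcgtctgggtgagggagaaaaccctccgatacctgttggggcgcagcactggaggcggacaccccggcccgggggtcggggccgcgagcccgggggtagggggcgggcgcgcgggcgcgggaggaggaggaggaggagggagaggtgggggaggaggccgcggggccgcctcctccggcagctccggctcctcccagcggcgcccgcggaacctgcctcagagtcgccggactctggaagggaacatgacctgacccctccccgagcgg
DUSP8: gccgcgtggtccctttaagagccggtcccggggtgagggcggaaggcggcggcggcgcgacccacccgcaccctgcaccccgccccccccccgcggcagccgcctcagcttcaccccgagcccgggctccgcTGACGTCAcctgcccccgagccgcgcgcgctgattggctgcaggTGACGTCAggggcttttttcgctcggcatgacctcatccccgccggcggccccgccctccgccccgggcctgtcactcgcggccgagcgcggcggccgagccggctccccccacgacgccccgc

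The GC box GGGCGG, present in 45.0% of all windows and in 8 of the 9 member windows, is not marked. The CRE is bound by factors of the CREB and ATF families. The DUSP1 window held TGACG 4 times, counting both strands. The full TGACGTCA, which by itself holds TGACG on each strand, had its first base at -125, and a TATA box lay at -30. A half-site on the other strand at -111 overlapped an E-box at -108. The DUSP2 window held no TGACG and an E-box at -113. The DUSP16 window held none of the marked motifs, and a GC box at -119. DUSP8 had the most full sites of the windows shown, with TGACGTCA at -118 and -74. Outside the windows shown, TGACG was found in DUSP3 (-99) and 1 DUSP10 window (-4), and not in DUSP6 or DUSP14. Of 35116 promoter windows of the same length, 24.6% held TGACG, 1.85% TGACGTCA, 7.26% CACGTG and 11.5% TATAAA. DUSP4 and DUSP5 had no window to search. In the member windows found, the AP-1 site TGANTCA (7.71% of all windows), the CArG box (1.29%) and the kappaB consensus (5.91%) had no match. The interferon-gamma activated site TTCNNNGAA (7.66%) matched only in DUSP3. These are letter matches and not measured binding.

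The first comparison asked how the members differed between M1 and M0 macrophages. A gene was called higher or lower at a difference of at least 1.0 on the log2 scale (2-fold) and detection on at least 1 of the 2 arrays, and rose and fell are used of called genes. DUSP5, DUSP1, DUSP2, DUSP16 and DUSP10 rose, 5 of the 9 members tested, and 0 fell, while 15.0% of all 9986 genes tested were called higher and 19.0% lower. The members were chosen with earlier results of these data known, so these shares are set side by side as a description only. DUSP16 and DUSP8 were tested only because the M1 array detected them. Among the 7 members detected on both arrays 4 rose, against 14.1% of all such genes. The median log2 difference of the 9 members was 1.27, against -0.185 over all genes tested. The member median was 0.57 in the authors' table, 0.56 without background correction and 0.67 when a common median over all probes set the scale.

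DUSP5, an ERK-specific phosphatase of the nucleus, had the largest difference. Its raw intensity was 184.9 on M0, 3670.2 on M1, 409.0 on M2a and 214.4 on M2c, and it was detected on every array. The M1 array stood far above the others, and M2a stood second. On the normalized scale DUSP5 was 47.5-fold higher on M1 than on M0 (5.57 on the log2 scale), and 30 of 9986 genes had a larger rise. Over the alternative ways of processing the log2 difference lay between 4.61 and 5.98.

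DUSP1, also called MKP-1, acts on p38, JNK and ERK and limits inflammatory cytokine production in macrophages. Its raw intensity was 396.4 on M0, 4661.0 on M1, 347.6 on M2a and 451.7 on M2c. M1 stood apart, and the other arrays lay close together. The normalized difference of M1 from M0 was 18.6-fold (4.22 on the log2 scale, 3.85 to 4.66 over the alternatives), with 89 genes showing a larger rise.

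DUSP2, also called PAC-1, is a nuclear phosphatase first known from activated lymphocytes. Its raw intensity was 191.4 on M0, 371.5 on M1, 211.1 on M2a and 155.9 on M2c. It was 4.46-fold higher on M1 than on M0 (2.16 on the log2 scale, 1.48 to 2.26 over the alternatives). M1 was the highest array and M2c the lowest.

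DUSP4, which removes phosphate from ERK and JNK in the nucleus, was not detected on any array by either probe. The detection p of its probes ran from 0.28442 to 0.92857, at raw intensities of 86.9 to 107.6. No difference was read from these signals.

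**Figure D1:**
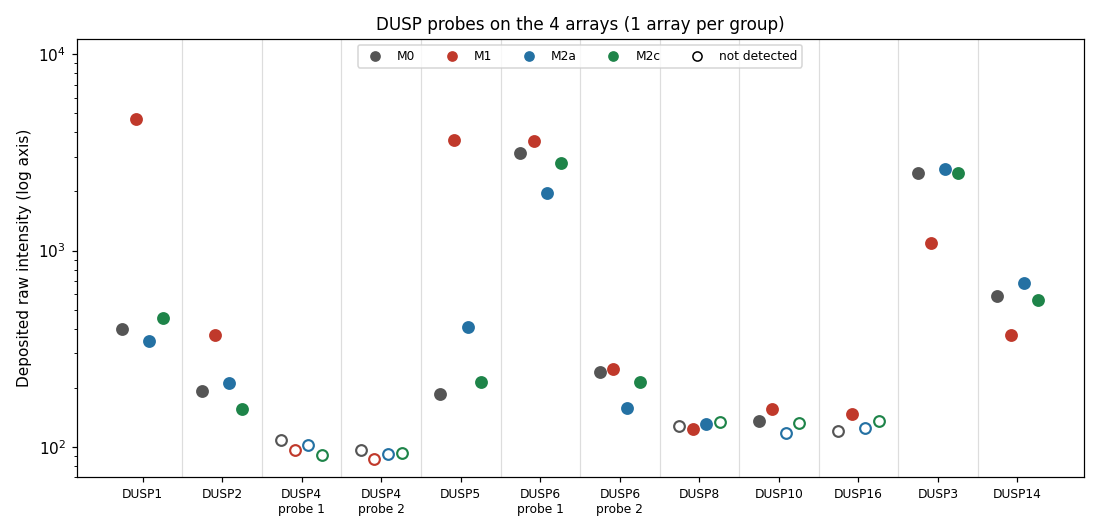
Deposited raw intensity (vertical log axis) of the 12 DUSP probes on the 4 arrays, coloured by group, 1 point per array and no error bars because each group has 1 array. Filled points were detected at a detection p below 0.01 and open points were not. Levels are to be compared within a probe: M1 stood above the other arrays for DUSP1 (4661.0), DUSP5 (3670.2) and DUSP2 (371.5) and below them for DUSP3 (1086.8).

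DUSP6, or MKP-3, removes phosphate from ERK in the cytoplasm. Its brighter probe read 3156.1 on M0, 3605.5 on M1, 1963.7 on M2a and 2809.4 on M2c. Its other probe, annotated to another RefSeq transcript, read 239.3, 248.0, 156.7 and 214.4 on the arrays in the same order. The arrays fell in the same order on both probes, M1 highest and M2a lowest. The M1 minus M0 difference was 0.42 on the log2 scale for the brighter probe and 0.89 for the other, and neither passed 2-fold.

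DUSP10 and DUSP16, which prefer JNK and p38, were dim. DUSP10, or MKP-5, read 135.8 on M0, 155.7 on M1, 117.9 on M2a and 132.2 on M2c, and was detected on M0 and M1 alone. DUSP16, or MKP-7, read 120.7, 146.0, 124.1 and 134.9 on the arrays in the same order and was detected on M1 alone. M1 had the highest raw reading of each gene.

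On the normalized scale DUSP10 was 2.41-fold higher on M1 than on M0 (1.27 on the log2 scale). DUSP16 was at least 2.44-fold higher, a bound taken against the lowest value of any detected probe on the M0 array. Neither call held in every way of processing. In the authors' normalized table the log2 differences were 0.57 for DUSP10 and 0.60 for DUSP16, and when a common median over all probes set the scale they were 0.67 and 0.99. DUSP8, an enzyme of JNK and p38 known mostly from brain and heart, read between 123.7 and 133.7, was detected on M1 and M2a, and did not pass. Its bound on M1 against M0 was at least 1.45-fold higher after normalization, although its raw reading was lowest on M1. No order of its arrays was read, since M0 and M2c did not detect it.

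The atypical members did not rise. DUSP3, or VHR, acts on ERK and JNK. It read 2489.2 on M0, 1086.8 on M1, 2589.6 on M2a and 2480.9 on M2c. M1 was the lowest array, and the other 3 were close to each other. The normalized difference of M1 from M0 was -0.92 on the log2 scale, just under the 2-fold rule, and lay between -1.23 and -0.49 over the alternatives. Only with arrays scaled to a common median over all probes did it pass.

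DUSP14, or MKP-6, which restrains T cell receptor signalling, read 584.5 on M0, 370.8 on M1, 686.3 on M2a and 559.4 on M2c. Its M1 minus M0 difference was -0.14 on the log2 scale after normalization, -0.75 with arrays scaled to a common median over all probes and -0.01 with a common median over the probes detected on all arrays. The choice of scaling thus moved DUSP14 more than any difference it showed in the main method.

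**Figure D2:**
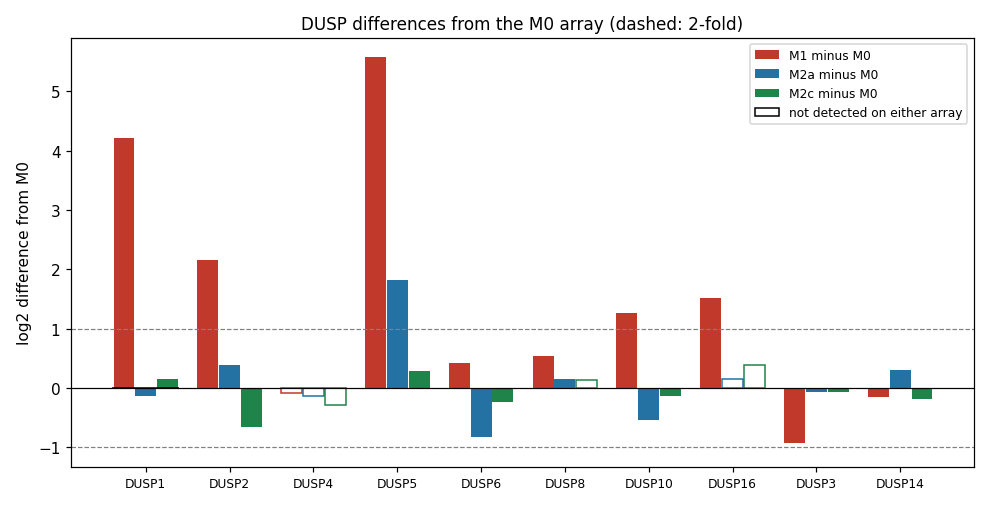
Log2 difference of each DUSP gene from the M0 array (vertical axis) for M1, M2a and M2c, 1 bar per array with no error bars. Dashed lines mark 2-fold and open bars mark genes detected on neither array. DUSP5 (5.57), DUSP1 (4.22), DUSP2 (2.16) and DUSP10 (1.27) passed on M1 and DUSP5 (1.83) on M2a; DUSP16 passed on M1 with a bar measured against an M0 signal that was not detected, so only its bound of at least 2.44-fold is read.

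The second comparison asked how IL-4 macrophages differed from M0. DUSP5 alone of the 8 members tested rose and 0 fell, against 4.09% higher and 5.04% lower of 9860 genes. Of the 6 members detected on both arrays it was again the 1 that rose, beside 3.16% of such genes. DUSP5 was 3.54-fold higher on M2a (1.83 on the log2 scale, 1.18 to 1.84 over the alternatives), and 101 genes had a larger rise. DUSP6 had the largest difference in the other direction, at -0.83 for the brighter probe and -0.96 for the other, and did not pass on either. DUSP10 was not detected on M2a and its bound there was at least 1.11-fold lower, while DUSP2 (0.39), DUSP14 (0.30), DUSP1 (-0.14) and DUSP3 (-0.07) differed less. The median of the 8 members was 0.04, against -0.01 over all genes tested.

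The third comparison asked how IL-10 macrophages differed from M0. None of the 7 members tested was called, and 0.677% of 9604 genes were higher and 0.448% lower (0.492% higher among genes detected on both arrays). DUSP2 had the largest difference, at -0.65 on the log2 scale (-0.69 to -0.30 over the alternatives). DUSP5 was 0.28 and DUSP1 0.15 higher, and DUSP6 was -0.24. The member median was -0.14, against -0.01 over all genes tested.

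The polarised states were also compared with each other. These comparisons share arrays with those above. Against M2a, DUSP1 (4.36), DUSP5 (3.75), DUSP10, DUSP2 (1.77), DUSP16 and DUSP6 (1.25) were higher on M1, 6 of 9 tested, and 0 were lower, beside 15.7% higher and 18.0% lower of 9791 genes. Of the 7 detected on both arrays 4 were higher, beside 14.1%. DUSP10 was at least 2.67-fold and DUSP16 at least 2.30-fold higher. The other DUSP6 probe differed by 1.85, so both of its probes passed between M1 and M2a, although neither array passed against M0. With arrays scaled to a common median over all probes the brighter DUSP6 probe was at 0.95. The authors' table left 4 members higher, without DUSP10 (0.75) and DUSP16 (0.56), and with the common median over all probes 4 were higher and 2 lower.

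Against M2c, 5 of 9 members were higher on M1, DUSP5 (5.29), DUSP1 (4.07), DUSP2 (2.81), DUSP10 and DUSP16, and 0 were lower, beside 16.3% higher and 21.4% lower of 9676 genes. Of the 6 detected on both arrays 3 were higher, beside 14.4%. Here DUSP10 was at least 2.47-fold and DUSP16 at least 2.13-fold higher. On M2a against M2c, DUSP5 (1.54) and DUSP2 (1.04) were higher, 2 of 7 tested (6 of them detected on both arrays), and 0 were lower. Of 9607 genes 4.81% were higher and 6.98% lower, and 3.79% were higher among those detected on both. The DUSP2 call did not hold in the authors' table (0.52).

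Ordered by normalized value, M1 was the highest array for DUSP1, DUSP2, DUSP5, DUSP6, DUSP10 and DUSP16. For DUSP10 and DUSP16 the arrays that did not detect them have no order. For DUSP1 the other 3 arrays lay within 0.28 log2 units of each other. DUSP5 ran M1, M2a, M2c, M0, with M2c and M0 not 2-fold apart. DUSP2 ran M1, M2a, M0, M2c, in which M2a and M0 and then M0 and M2c were neighbours within 2-fold. DUSP3 and DUSP14 spanned 0.92 and 0.48 log2 units over all 4 arrays, so none of their neighbours in order was 2-fold apart.

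**Figure D3:**
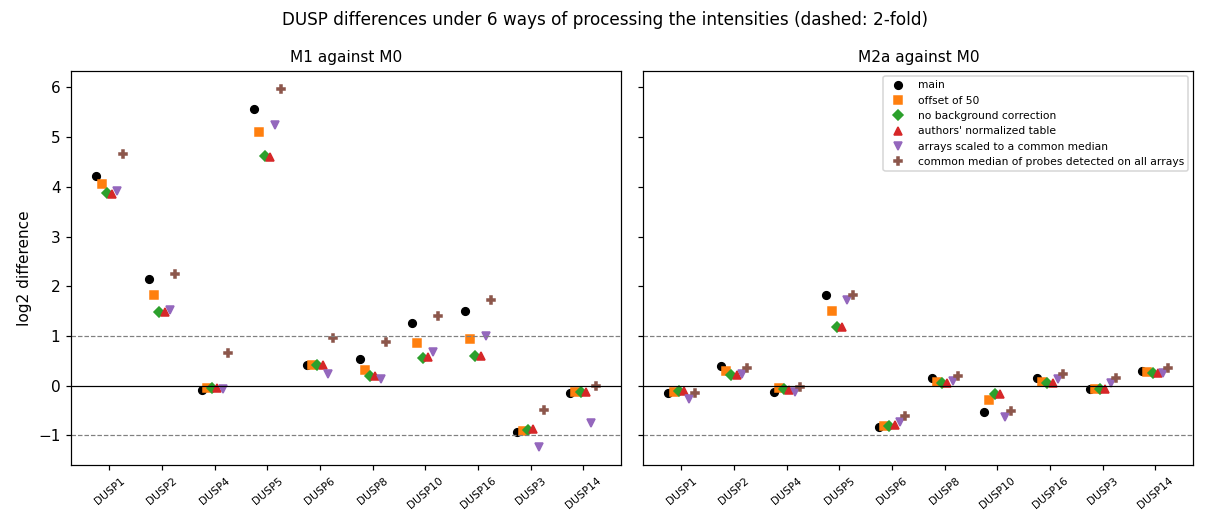
Log2 difference of each DUSP gene (vertical axis) on M1 against M0 (left) and M2a against M0 (right) under 6 ways of processing the intensities, 1 point per way; dashed lines mark 2-fold. DUSP1, DUSP2 and DUSP5 stayed past 2-fold on M1 in all 6, DUSP10 and DUSP16 lay on both sides of the line, and DUSP5 stayed past it on M2a. DUSP4 was not detected on any array.

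The genes most like a called member were taken by the root mean square distance between their 3 log2 differences from M0, over 4 arrays and 10394 other detected genes. DUSP5 had few neighbours. The nearest were SLAMF7, a receptor of activated leukocytes, at a distance of 0.43, PTAFR, the receptor of platelet-activating factor, at 0.50, and HLA-DRB5, an MHC class II chain whose probe may read related HLA-DRB genes, at 0.52, and only 1 gene lay within 0.5. SLAMF7 differed from M0 by 5.69 on M1 and 1.14 on M2a. SLAMF7 was detected on 3 arrays and PTAFR on 2, so their distances rest partly on signals not above background. DUSP1 had 65 genes within 0.5, the nearest being ATXN7L1 (0.05), the checkpoint ligand CD274 (0.12) and NCF1B (0.12), a near-identical copy of the NADPH oxidase gene NCF1. All 3 were detected on 1 array alone, so their distances rest on background signals and their ranks are not firm.

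The nearest to DUSP2 were PLAAT2 (0.05), the membrane-type matrix protease MMP14 (0.10) and MAP2K3 (0.14), the kinase that activates p38. The nearest to DUSP10 were PHACTR4 (0.04), SEMA4D (0.08) and the cytokine gene IL24 (0.09), and those to DUSP16 were ZSCAN29, FAM241A and OR7E85BP (0.08, 0.08 and 0.09). DUSP10 had 1013 and DUSP16 had 1012 genes within 0.5. The distance is not scaled to the size of a member's differences, so these counts are not compared between members. DUSP10 and PLAAT2 were detected on 2 arrays and DUSP16, IL24 and OR7E85BP on 1. Distances and ranks that involve them thus also rest partly on signals not above background. A likeness over 3 differences is a description of these arrays.

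Genes around the members in the pathway were taken from 9 lists. Of all genes tested 15.0% were higher and 19.0% lower on M1 against M0, and 4.09% higher and 5.04% lower on M2a. These shares stand beside the list counts below, and counts near them are not read as results about a list. Immediate early genes, which are transcribed within minutes of MAP kinase signalling and whose products include the AP-1 factors, moved most on M1. Of the 10 tested 8 rose and 2 fell, with a median log2 difference of 1.93. EGR1 rose by 3.08, ATF3 by 2.83 and JUNB by 2.46. FOS and MYC were the 2 that fell, by 1.22 and 1.38 (both were chosen after seeing their values). Between 6 and 8 genes rose over the alternatives. On M2a ATF3 (1.63) and JUN (1.35) rose and FOS fell by 2.20, so 2 were higher and 1 lower of 10, and on M2c 0 of 10 were called.

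ERK feedback and output genes, which include the Sprouty and SPRED inhibitors of the Ras to ERK pathway, went both ways. Of 11 tested on M1 4 rose and 3 fell, with a median of 0.71. Only 1 rose with an offset of 50, without background correction or in the authors' table, and the median was 0.04 with the mean over detected probes. IER3, an early response gene, rose by 5.66. SPRY2 fell by 1.52 and SPRED1 was at least 2.87-fold lower, a call that held in 7 of 10 ways of processing. Here and below the 10 ways count the main method as 1 of them. On M2a SPRED1 was the 1 gene of 10 that was called, 2.24 higher on the log2 scale, and on M2c 0 of 9 were called. SPRED1 read 244.9 on M0, 114.0 on M1, 795.0 on M2a and 311.4 on M2c.

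The kinases of the cascades were taken by tier, beside 15.0% higher and 19.0% lower of all genes tested on M1. Of 7 MAP kinases tested on M1 0 rose and MAPK12, a p38 isoform, was at least 2.05-fold lower, with a list median of -0.43. Of 5 MAP kinase kinases MAP2K3 rose by 2.21 and MAP2K4, which activates JNK, was at least 2.18-fold lower by its brightest probe, with a difference of -0.49 by a second one. Of 14 MAP3 kinases and adaptors 1 rose and 4 fell, with a median of 0.30. MAP3K8, the kinase TPL2 that links LPS to ERK, rose by 1.72, MAP3K20 was at least 3.22-fold lower by its brightest probe (a probe detected on 1 array gave -0.54), and MAP3K3 was at least 1.57-fold lower by its brightest probe, while another probe, detected on 1 array, differed by 1.11. Of these genes MAP2K3 and MAP3K8 stayed past 2-fold over all alternatives. MAPK12 and MAP3K20 were called in 7, MAP2K4 in 6 and MAP3K3 in 5 of the 10 ways of processing. The MAP3K3 bound is below 2-fold, so that call rests on a signal that was not detected. Among 11 MAP3 kinases and adaptors detected on both arrays 1 rose and 2 fell. MAP3K1, another of those that fell and named after seeing its values, stayed past 2-fold in all 10, at -1.80 to -1.06.

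Of 9 kinases activated by MAP kinases 0 were called on M1, and on M2a MAPKAPK3, a substrate kinase of p38, rose by 1.03. Of 5 scaffolds MAPK8IP3 was at least 1.68-fold lower on M1. Among 7 other phosphatases of MAP kinases PPP2CB, a catalytic subunit of PP2A, was called higher, by at least 1.46-fold, and 0 fell. The calls of MAPK8IP3 and PPP2CB each held in 5 of 10 ways of processing. Both bounds are below 2-fold, so these calls rest on signals that were not detected. With detection on both arrays 0 of 3 scaffolds and 0 of 5 other phosphatases were called. Of 10 other dual-specificity phosphatases DUSP18 (1.25) and DUSP22 (1.05) rose on M1 and 0 fell, with a median of 0.17. That is near the 15.0% of all genes tested that were higher, and 0 rose in the authors' table. The DUSP18 and DUSP22 calls each held in 6 of 10 ways of processing, and another DUSP22 probe, detected on 4 arrays, differed by 0.90. The signs of several list medians depended on the scaling: with a common median over all probes those of the other dual-specificity phosphatases (-0.26, with 4 lower), the MAP kinase kinases (-0.31) and the MAP3 kinases (-0.21) were below 0, and with a common median over detected probes those of the kinases activated by MAP kinases (0.12), the other phosphatases (0.21) and the scaffolds (0.15) were above it. On M2a STYX, a catalytically inactive relative, fell by 1.05, and MAP3K20 fell by 1.32, while another MAP3K20 probe gave -0.27. Each of these calls held in 6 of 10 ways of processing (down to -0.90 for STYX and -0.70 for MAP3K20). On M2c 0 genes of any of the 9 lists were called in the main method. With either common median, or with normalization of the 2 arrays alone, 1 of 8 MAP kinases tested was called higher there.

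**Figure D4:**
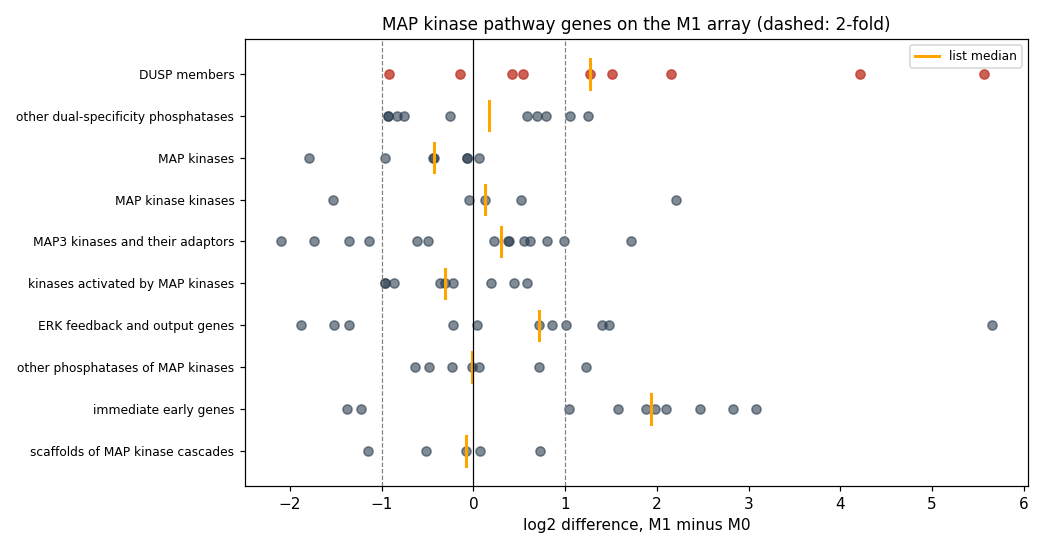
Log2 difference of M1 from M0 (horizontal axis) for the genes tested in the DUSP set (red) and in the 9 pathway lists (dark), 1 point per gene, with orange bars at list medians and dashed lines at 2-fold. The DUSP median was 1.27, that of the immediate early genes 1.93 and that of the MAP kinases -0.43.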

How the data were processed

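Total RNA from 4 cultures of THP-1 macrophages was read on Illumina BeadChip arrays, 1 per group. The authors deposited raw intensity values with a detection p-value per probe, and a normalized intensity table, made with GenomeStudio, per the submitters' processing notes. The deposited series value table held the same normalized values (0 of 188912 cells differed). From the raw intensities the background was corrected with limma 3.58.1 (neqc, R 4.3.3, offset 16), its level inferred from the detection p-values, and the arrays were quantile normalized and put on the log2 scale. The offset understates differences of dim probes. Of the probes, 30111 carried 1 gene symbol, 8 several and 17109 none in the platform annotation, and 30072 symbols were updated through Entrez identifiers. A probe at a detection p below 0.01 was called detected. A gene detected on 1 of the 2 arrays was given a bound, its bright value over the higher of its own dim value and the lowest detected value there. The procedure was also run on simulated arrays that shared 1 background level, with changes placed only in probes detected on both M0 and M1. That run therefore does not bear on genes detected on 1 array or on background differences between arrays. Alternatives were an offset of 50, no background correction, 2 scalings, the authors' table, other detection rules, a mean over probes and normalization of the 2 arrays alone. Named pathway genes were the 3 called genes per list with the largest difference, and the 3 nearest genes of each called member. The members and lists were chosen with earlier results of these data known. Array number limits the precision.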

Additional observations from a re-analysis of the deposited data

How the results depend on the processing

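The calls of DUSP1, DUSP2 and DUSP5 on M1 against M0 and of DUSP5 on M2a against M0 held over the 9 alternatives. Of these, 1 (a common median over probes detected on all arrays) was chosen after seeing the data. The other detection rules and the mean over probes could not change these calls, since each gene has 1 probe, detected on every array. No background correction and the authors' table gave nearly the same values (3.87 and 3.85 for DUSP1 on M1 against M0). The count of members called on M1 against M0 moved from 5 to 3 without background correction, with an offset of 50 and in the authors' table, and that on M1 against M2c moved from 5 to 3 with these and with detection on both arrays. On M2a against M2c it moved from 2 to 1 without background correction, with an offset of 50, with a common median over all probes and in the authors' table. On M1 against M2a it was 6, with 4 in the authors' table, without background correction and with detection on both arrays, and 4 higher with 2 lower with a common median over all probes. The calls lost were those of DUSP10, DUSP16, DUSP2 and, with a common median over all probes on M1 against M2a, DUSP6, and the cause was not tested. With a common median over all probes DUSP3 became lower on M1 against every other array (-1.23 against M0, -1.28 against M2a and -1.16 against M2c) and DUSP14 against M2a (-1.01). That scaling shifted the median of all detected genes on M1 against M0 from -0.17 to -0.62 and a common median over probes detected on all arrays to 0.12, so that higher genes made up 44.0% of those called in the main method and 19.4% and 61.3% with these scalings. With detection on both arrays, the alternative itself removes genes seen on 1 array. Higher genes were 44.8% of those called on M2a against M0 or 34.3% with the common median over all probes, 46.7% or 23.5% on M1 against M2a (61.7% with detected probes), 43.2% or 19.1% on M1 against M2c (60.2%) and 40.8% or 27.5% on M2a against M2c. Counts of all genes called on M1 against M0 were 1494 higher and 1902 lower, or 847 and 796 in the authors' table, 403 and 497 on M2a or 170 and 125, and 65 and 43 on M2c or 20 and 4. No paired analysis was possible because each group has 1 array. Signal over background limits DUSP4, DUSP8, DUSP10 and DUSP16.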
